A study of Rattus norvegicus with 4 samples.

Results

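The genes described here are the protein kinase genes on a spotted rat cDNA array, 61 of the 958 named genes measured. They were chosen by gene name alone: every spot with 1 gene symbol that begins with the name of a kinase family (Cdk, Mapk, Map2k to Map4k, Prk, Camk, Rps6k, Grk, Jak, Akt, Hipk, Csnk, Pak, Raf, Gsk3, Stk, Ptk, or Syk, Lyn, Fyn and Src). The name pattern took 67 symbols, and 6 of them, Cdkn3, Csnk2b, Prkab1, Prkag1, Prkar1a and Prkar2a, were left out as non-kinase subunits or inhibitors. Of the 61 genes, 43 had 1 spot and 18 had several, which gave 91 spots. By the same rule, 3 genes were taken that encode no active kinase. They are Aktip, an AKT-binding protein, Mapk8ip2, a scaffold of the JNK pathway, and Camkv, a pseudokinase of the calmodulin kinase group.

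Male Sprague-Dawley rats weighing 250 to 300 g were injected intraperitoneally with alpha-naphthylisothiocyanate (ANIT) at 75 mg/kg in olive oil, or with olive oil alone, and livers were taken after 12 h. ANIT damages the lining of the bile ducts and so blocks bile flow (cholestasis). Liver RNA from the 3 rats of a treatment was pooled, and ANIT and olive oil RNA were hybridised together on 4 arrays. Arrays 1 and 3 had the dye Cy5 on ANIT RNA and Cy3 on olive oil RNA, and arrays 2 and 4 had the dyes the other way round. No label says that the arrays held separate RNA preparations, so the p-values rest on variation among hybridisations of pooled RNA, which may be technical, and not on variation among animals.

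Protein kinases transfer phosphate from ATP to serine, threonine or tyrosine of other proteins, and pass signals from receptors to metabolic enzymes, the cytoskeleton and transcription factors. In liver, the MAP kinase cascades, protein kinase C and the JAK kinases are known to respond to bile acids and cytokines, while AMPK, AKT and GSK3 govern fuel metabolism. Kinase activity is set largely by phosphorylation and partner proteins, and the array reads transcripts only.

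The deposited value of a spot was 1 log ratio per array, in log units whose base and direction were not given in the sources used here. Sides are therefore named positive or negative, with no statement of which treatment was higher, and no level of a transcript can be read. The ratios were taken to run between the treatments in one direction on every array, which no source states. Spots of a gene were averaged, and the median of the gene spots was subtracted on each array. These medians had been -0.77, 0.32, -0.72 and 0.30 on arrays 1 to 4. For each gene, limma then gave a mean ratio over the 4 arrays and a dye coefficient, the amount by which arrays with ANIT in Cy5 lay above (positive) or below (negative) that mean ratio. Of all 1174 features tested (named genes and unnamed gene spots), 46 passed an adjusted p of 0.05 in the mean ratio, 3.92%, and 1015 in the dye coefficient, 86.5%. Had the ratios been formed between the dyes in one direction on every array, the dye coefficient would be the treatment difference, so both are given.

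Across the 61 kinase genes, 1 passed in the mean ratio, Hipk3, on the negative side, against 3.92% of all features (2.3% on the negative side and 1.62% on the positive). It was also the 1 call among the 58 genes that encode an active kinase. The median mean ratio was 0.0021 for the kinase genes and 0.0042 for all features, with an SD over genes of 0.0944 and 0.0988. Hipk3 added to the kinase SD: over single kinase spots it was 0.087 with Hipk3 and 0.070 without it. On the positive side lay 31 kinase genes and on the negative side 30. This balance is set by the centring: in the values as deposited all 61 were negative, with a median of -0.21, beside -0.21 over all features. At an unadjusted p under 0.05 in limma there were 7 kinase genes, 5 positive and 2 negative, which is 11.5% against 16.9% of all features. In size, 51 of the 61 were under 0.1 log units, beside 946 of all 1174 features.

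**Figure D1:**
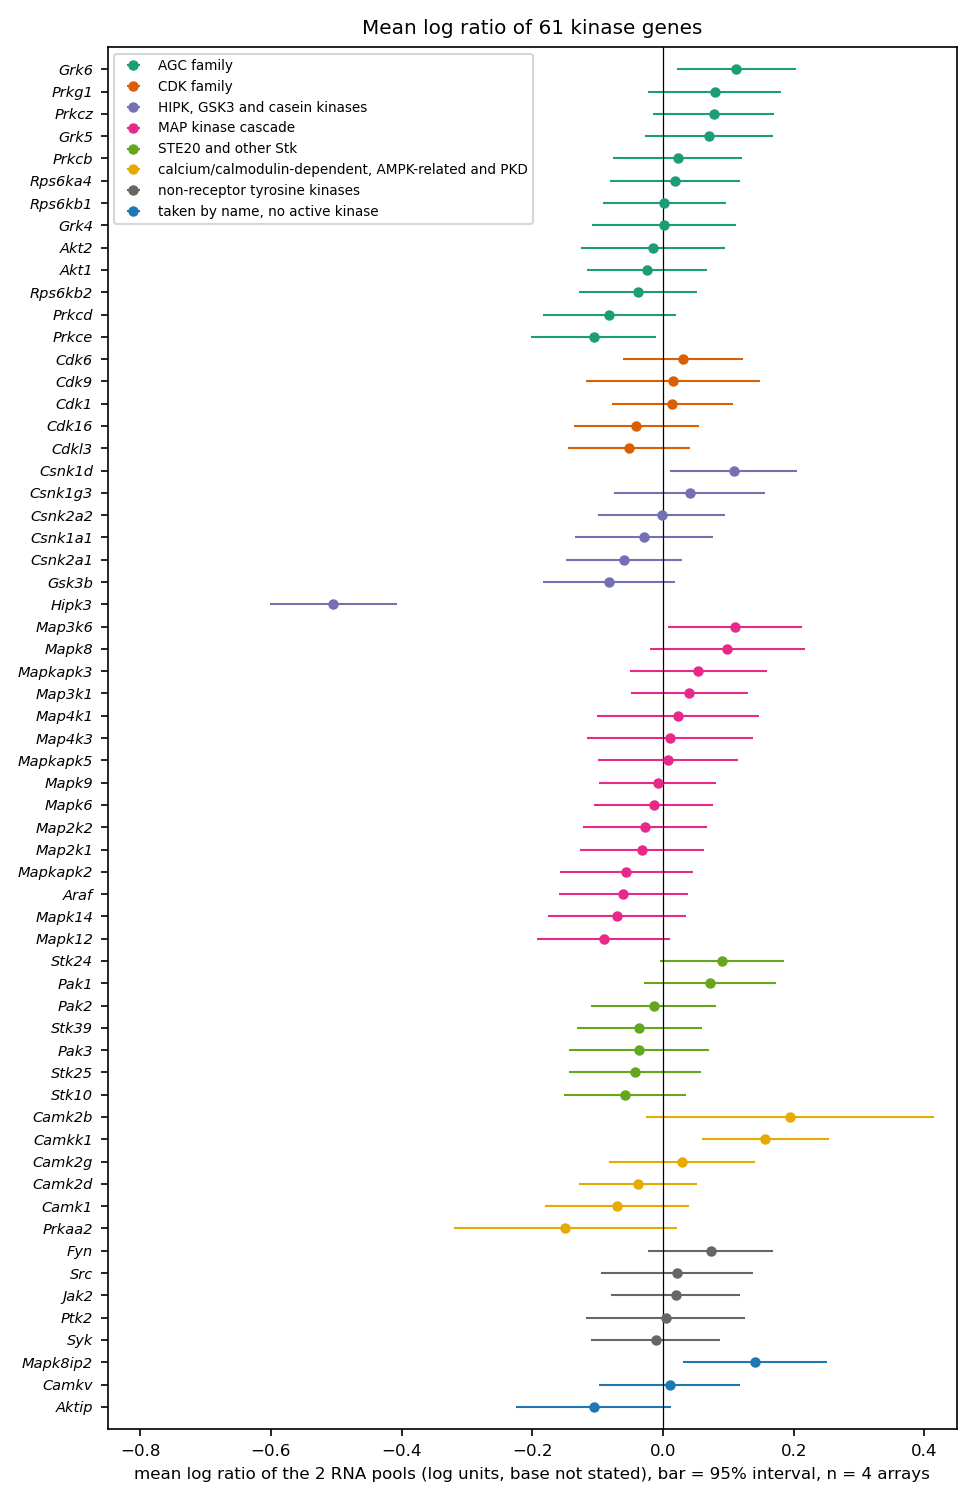
Mean log ratio of the 61 kinase genes (x axis, log units of unstated base, centred on the median gene spot), grouped and coloured by kinase class, with 95% intervals from limma over 4 arrays. Hipk3 stands at -0.50, and the other 60 genes lie between -0.15 and 0.19.

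Hipk3 encodes homeodomain-interacting protein kinase 3, a serine/threonine kinase of the CMGC group known to bind and phosphorylate nuclear regulators. It was measured by 1 spot. As deposited, its log ratios were -0.82, -0.58, -0.74 and -0.74 on arrays 1 to 4, negative on every array whichever dye ANIT RNA carried. All 4 deposited values were negative for 22.5% of all features and for 7 kinase genes: Hipk3, Csnk1g3, Map2k1, Mapk9, Mapk12, Mapk14 and Pak2. The SD of the deposited values of Hipk3 was 0.103 around a mean of -0.72, the 6th lowest of all features.

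After centring, Hipk3 stood at -0.057, -0.90, -0.028 and -1.03 on arrays 1 to 4. It thus lay close to the median gene spot on both arrays with ANIT in Cy5, with a mean of -0.043, and far below it on both with ANIT in Cy3, with a mean of -0.97. All 4 arrays remained on one side of the median gene spot. The mean ratio was -0.50 ± 0.043 log units (SE, n = 4 arrays), with a 95% interval from -0.60 to -0.41 and an adjusted p of 0.000194 in limma. By size it ranked 8 among 1174 features. As a fold, that is 1.42 for a logarithm of base 2, 1.66 for a natural one and 3.19 for base 10.

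The call of Hipk3 held in each of 11 alternative settings that kept a dye effect in the fit, with mean ratios between -0.72 and -0.47. In the 9 of these settings where limma kept a variance for each gene, the adjusted p lay between 5.27e-05 and 0.00271. Without array 2 or array 4 limma gave every gene the same SE, 0.063, with 1 residual degree of freedom, so the p-values of those fits do not use a gene's own variation and are not set beside the others. Without a dye effect the mean ratio was the same and the adjusted p was 1.00. Its dye coefficient was 0.46 ± 0.043 (adjusted p = 6.45e-06 in limma), of nearly the same size as its mean ratio and of opposite sign. That coefficient is relative to the median gene spot. In the values as deposited it was -0.063 (adjusted p = 0.203 in limma), of opposite sign and not past the threshold.

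**Figure D2:**
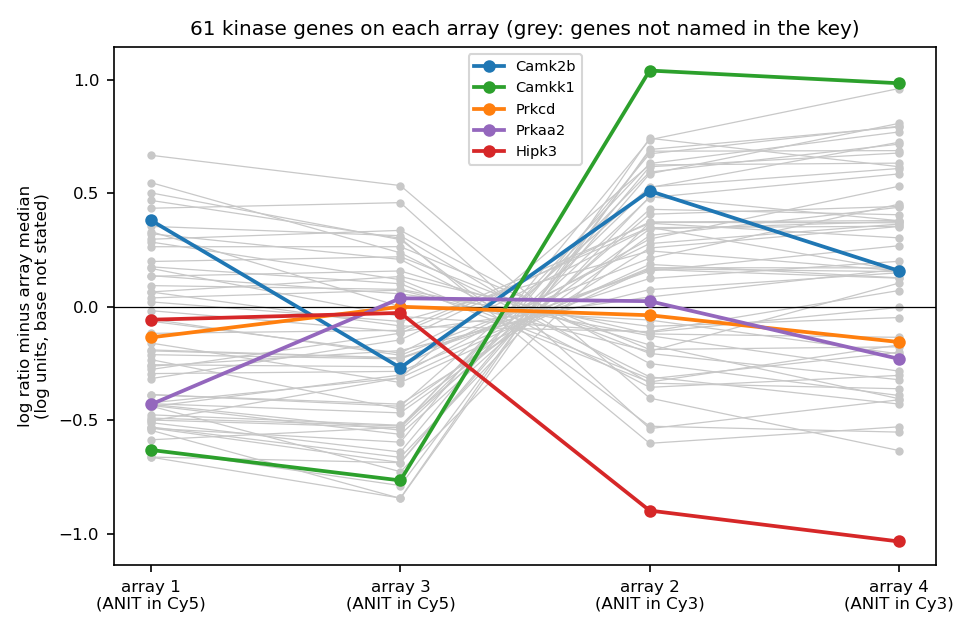
Centred log ratio (y axis, log units of unstated base) of the 61 kinase genes on each array, ordered by the dye that ANIT RNA carried, with 1 line per gene and 5 genes coloured. Most lines cross 0 between the dye orientations, while Hipk3 falls from near 0 to about -1.03 on array 4.

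The start of the Hipk3 gene is shown because Hipk3 alone among the kinase genes passed in the mean ratio. The stretch comes from RefSeq, build GRCr8, chr3:111321143-111321442, minus strand, and covers 250 bases before to 50 after the annotated start. Capitals mark GC boxes (GGGCGG or its reverse complement CCGCCC).

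Hipk3: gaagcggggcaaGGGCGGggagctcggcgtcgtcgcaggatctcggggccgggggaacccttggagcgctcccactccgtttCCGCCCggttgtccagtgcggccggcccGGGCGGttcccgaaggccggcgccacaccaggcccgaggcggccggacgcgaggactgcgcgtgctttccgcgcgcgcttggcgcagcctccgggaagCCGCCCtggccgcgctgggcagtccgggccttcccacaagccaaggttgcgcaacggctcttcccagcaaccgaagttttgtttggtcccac

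The window held 4 GC boxes, none overlapping another. At least 1 was present in 33.1% of the 33469 rat promoter windows of that length. Counted per gene, with a match in any window of the gene, the GC box was present in 38 of the 54 kinase genes with a window (70.4%). These shares count different units, windows and genes, so they are not set against each other. Other letter patterns searched on both strands were not found in it: the cyclic AMP element TGACGTCA (in 1.83% of all windows), the STAT pattern TTCNNNGAA (8.87%), the antioxidant element core TGACNNNGC (12.1%), the AP-1 site TGACTCA (4.63%), CCAAT (37.5%) and TATAAA (14.2%). Their absence says only that these letters are not in this window.

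The other 60 kinase genes had mean ratios between -0.15 and 0.19, and their adjusted p in limma ran from 0.0905 to 0.988. For 50 of them the 95% interval lay within 0.2 log units of 0 on both sides, a size that would be a fold of 1.15 in base 2, 1.22 for a natural logarithm and 1.58 in base 10. For 10 the interval reached past that size: Camk2b, Camkk1, Mapk8ip2, Grk6, Map3k6, Csnk1d, Mapk8, Prkce, Aktip and Prkaa2. For these 10 genes, a difference of that size lay within the precision of the 4 arrays. The SE of a kinase gene was between 0.039 and 0.097.

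Among the kinases driven by calcium and calmodulin or related to AMPK, 0 of 6 passed in limma, and 1, Camkk1, had an unadjusted p under 0.05. Camk2b, which encodes the beta subunit of calmodulin kinase II, had the highest mean ratio of all kinase genes at 0.19 ± 0.097 (adjusted p = 0.343 in limma). Its centred log ratios were 0.38, 0.51, -0.27 and 0.16 on arrays 1 to 4, so arrays 1 and 3, which share a dye orientation, lay on opposite sides. It passed without array 3, at 0.36, and without array 4, at 0.28, the latter in a fit with the same SE for every gene. With array 1 left out it stood at 0.032, and as deposited at -0.021. Camk2d and Camk2g, the delta and gamma subunits, stood at -0.038 and 0.029.

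Camkk1, the kinase that activates calmodulin kinases I and IV, came closest to the threshold after Hipk3, at 0.16 ± 0.043 (adjusted p = 0.0905 in limma). Its values were -0.63, 1.04, -0.77 and 0.98 on arrays 1 to 4, negative with ANIT in Cy5 and positive with ANIT in Cy3. Its dye coefficient, -0.86, was the farthest from 0 of all kinase genes. As deposited its mean ratio was -0.059. Camk1, one of its substrates, stood at -0.071.

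Prkaa2, the alpha 2 catalytic subunit of the energy sensor AMPK, stood at -0.15 ± 0.075 (adjusted p = 0.345 in limma). On arrays 1 to 4 it was at -0.43, 0.024, 0.037 and -0.23, with both arrays of each orientation far apart. Without array 2 it stood at -0.21 and passed only with the SE shared by every gene, 0.063, below its own SE in the fit of all 4 arrays. Without array 1 it was at -0.033. The AMPK subunits that the name rule leaves out, Prkab1 and Prkag1, stood at 0.035 ± 0.043 and 0.14 ± 0.084. Prkag1 was at -0.11, 0.35, 0.35 and -0.051 on arrays 1 to 4, so arrays of the same orientation lay on opposite sides. Camk2b and Prkaa2 were the kinase genes with an SE above 0.06.

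In the MAP kinase cascades, in which a kinase of the Map3k level activates a Map2k and this a Mapk, 0 of 15 genes passed in limma (1 at an unadjusted p under 0.05), and mean ratios lay between -0.091 and 0.11. Map3k6, a stress-activated kinase of the ASK family, stood highest at 0.11 ± 0.045 (adjusted p = 0.264 in limma), with -0.50, 0.62, -0.31 and 0.63 on arrays 1 to 4. Map3k1, which feeds the JNK branch, stood at 0.041. Map2k1 and Map2k2, the MEK kinases that activate ERK, stood at -0.032 and -0.027, and Araf, a RAF kinase above them, at -0.061. The mean ratios of this ERK branch thus lay within 0.1 of the median gene spot. Single arrays lay farther from it, as with Map2k1 at 0.32, -0.36, 0.21 and -0.30 on arrays 1 to 4.

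The stress-activated MAP kinases were measured by 4 genes. Mapk8, which encodes JNK1, stood at 0.099 ± 0.052, with -0.055, 0.21, -0.21 and 0.45 on arrays 1 to 4, and Mapk9, which encodes JNK2, at -0.0082 ± 0.040. With print blocks centred, Mapk8 stood at 0.016. The p38 genes Mapk14 (p38 alpha) and Mapk12 (p38 gamma) stood at -0.071 ± 0.046 and -0.091 ± 0.045. Mapk12 was at 0.47, -0.60, 0.30 and -0.53 on arrays 1 to 4, a pattern mirrored in Mapk14 at 0.50, -0.53, 0.30 and -0.55. The kinases that p38 activates, Mapkapk2, Mapkapk3 and Mapkapk5, stood at -0.056, 0.054 and 0.0079. Mapk6, the atypical kinase ERK3, was at -0.014, and Map4k1 and Map4k3, at the top of the JNK branch, at 0.024 and 0.011. None of these passed, and the smallest adjusted p among them in limma was that of Mapk12, 0.340.

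Of 13 AGC family genes, which include the protein kinase C isoforms, AKT, the S6 kinases and the kinases that desensitise G protein-coupled receptors, 0 passed in limma (2 at an unadjusted p under 0.05), and mean ratios lay between -0.11 and 0.11. Grk6 stood at 0.11 ± 0.040 (adjusted p = 0.183 in limma), Grk5 at 0.070 and Grk4 at 0.0021. Among the protein kinase C genes, Prkce stood at -0.11 ± 0.042, Prkcd at -0.082 ± 0.045, Prkcb at 0.023 and the atypical isoform Prkcz at 0.077. Prkce was at -0.42, 0.19, -0.31 and 0.13 on arrays 1 to 4. One of the 3 Prkcz spots passed on its own, at 0.17 (adjusted p = 0.0474 in limma), while the others stood at 0.0083 and 0.051.

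Prkcd shared with Hipk3 alone, among the kinase genes, that all 4 arrays lay on one side, at -0.14, -0.038, -0.00043 and -0.16. Over all features, 2.81% had that property. For Prkcd it came from averaging 3 spots that differed. One spot stood at 0.28, -0.40, 0.54 and -0.52 on arrays 1 to 4, and another at -0.44, 0.28, -0.33 and 0.16. The third lay at -0.24, -0.00029, -0.21 and -0.11. The insulin pathway kinases Akt1 and Akt2 stood at -0.024 and -0.015. The S6 kinases Rps6kb1 and Rps6kb2, which phosphorylate ribosomal protein S6 under mTOR, were at 0.0022 and -0.038, and Rps6ka4, a kinase of histone H3, at 0.018. Prkg1, the cyclic GMP-dependent kinase, was at 0.079.

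Hipk3 was the 1 call among 7 HIPK, GSK3 and casein kinase genes. Csnk1d, a casein kinase of the circadian clock, stood at 0.11 ± 0.043 (adjusted p = 0.240 in limma), and the casein kinases Csnk1g3 and Csnk1a1 at 0.041 and -0.029. Gsk3b, the kinase that inactivates glycogen synthase, stood at -0.083 ± 0.044, with -0.53, 0.48, -0.66 and 0.38 on arrays 1 to 4. Csnk2a1 and Csnk2a2, the catalytic subunits of casein kinase 2, were at -0.059 and -0.0022, and their regulatory partner Csnk2b at -0.026.

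Of 5 CDK family genes, 0 passed in limma, adjusted or unadjusted. Cdk1, which drives entry into mitosis, stood at 0.014, Cdk6, a kinase of the G1 phase, at 0.030, and Cdk9, the kinase of transcription elongation, at 0.016. Cdk16 was at -0.041 and Cdkl3, farthest from 0 in the class, at -0.052 ± 0.041. The 5 non-receptor tyrosine kinases lay between -0.011 and 0.073, with 0 past the threshold in limma, adjusted or unadjusted. Fyn, a kinase of the SRC family, stood highest at 0.073 ± 0.042, Src at 0.022, Syk, an immune receptor kinase, at -0.011, and Ptk2, the focal adhesion kinase, at 0.0045. Jak2, the kinase that phosphorylates STAT proteins below cytokine and growth hormone receptors, stood at 0.020 ± 0.043.

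Among 7 STE20 and other Stk kinases, some of which act in cytoskeletal and cell volume control, 0 passed in limma, adjusted or unadjusted. Stk24 stood at 0.090 ± 0.042, with 0.021, 0.25, -0.065 and 0.16 on arrays 1 to 4, so array 3 alone was negative. With print blocks centred, Stk24 stood at 0.035. Pak1, Pak2 and Pak3, the kinases activated by RAC and CDC42, stood at 0.072, -0.014 and -0.037, and Stk10, Stk25 and Stk39 at -0.058, -0.043 and -0.036. Of the genes that encode no active kinase, Mapk8ip2 stood at 0.14 ± 0.048 (adjusted p = 0.165 in limma), Camkv at 0.011 and Aktip at -0.11. Mapk8ip2 stood at 0.20 without array 2, where it passed with the SE shared by every gene, and at 0.084 without array 4.

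The dye contrast was wider than the mean ratio in the kinase genes. In limma, 53 of the 61 passed in the dye coefficient, 17 positive and 36 negative, which is 86.9% against 86.5% of all features. Over all features 40.6% passed on the positive side and 45.8% on the negative. Sides of the dye coefficient are relative to the median gene spot: in the values as deposited 56 kinase genes passed, 0 positive and 56 negative, beside 2.81% positive and 78.1% negative of all features. The SD of the dye coefficient over kinase genes was 0.372 and its median -0.21, beside 0.454 and -0.041 for all features. For 52 kinase genes the sign of the centred ratio followed the dye on all 4 arrays, which is 85.2% against 84.5% of all features. The 8 genes that did not pass were Camk2b, Jak2, Cdk1, Ptk2, Grk4, Akt2, Prkcd and Prkaa2. For Cdk1 and Jak2, every spot passed on its own in limma, and for Prkcd and Akt2 some spots did. In each of these genes the passing spots lay on both sides of 0, so their average lay nearer to it.

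By class, the MAP kinase genes had 10 positive and 5 negative calls in the dye coefficient, and the AGC genes 0 positive and 10 negative. As deposited, the split between sides was gone, with 0 positive and 13 negative calls in each of these classes, and median coefficients of -0.33 for the MAP kinase genes and -0.75 for the AGC genes. The highest coefficients were those of Csnk1g3 (0.56), Mapk12 (0.48), Mapk14 (0.47), Hipk3 (0.46) and Pak2 (0.46). The lowest were those of Camkk1 (-0.86), Map4k1, a kinase of blood cells (-0.72), Pak3 (-0.72), Mapk8ip2 (-0.71) and Syk (-0.70). After centring, some related genes lay on opposite sides of the median gene spot, as with Mapk8 at -0.23 and Mapk9 at 0.34, and Pak2 at 0.46 and Pak3 at -0.72. As deposited, both pairs lay on the negative side, with Mapk8 at -0.76 and Mapk9 at -0.18, and Pak2 at -0.065 and Pak3 at -1.24. Over the kinase genes, which are not independent replicates, centred values correlated at r = 0.90 between arrays 1 and 3 and 0.95 between arrays 2 and 4, and between -0.89 and -0.84 for arrays of opposite orientation.

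**Figure D3:**
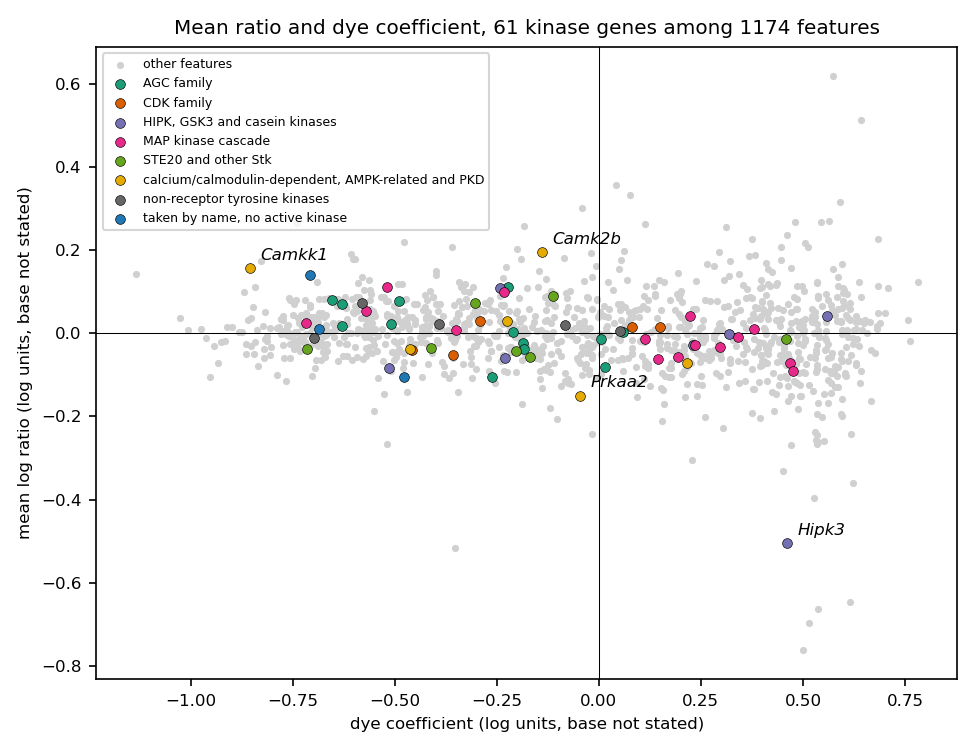
Mean log ratio (y axis) against dye coefficient (x axis), both in log units of unstated base, for 61 kinase genes coloured by class among 1174 features in grey. Kinase genes spread from -0.86 to 0.56 along the dye coefficient, and Hipk3 at 0.46 and -0.50 lies apart from the other kinase genes.

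The 18 kinase genes with several spots, 48 spots in all, showed how far single spots of 1 gene differed. In the mean ratio, the spots of a gene differed by 0.0096 to 0.17. The pooled SD within genes was 0.0538, beside 0.0798 for all 340 named genes with several spots. In the dye coefficient the spots of a kinase gene differed by 0.046 to 1.36, with a pooled SD of 0.387. That SD was 0.386 for the same 340 genes, and the SD over all 91 kinase spots was 0.404. The spread between spots was larger in the dye coefficient than in the mean ratio for all 18 genes. The centring shifts all spots alike, so it does not change these spreads, but it sets where 0 lies. After it, spots of 10 genes lay on both sides of 0 in the dye coefficient: Akt1, Akt2, Cdk1, Cdk6, Csnk2a1, Jak2, Prkcd, Stk10, Stk24 and Stk25.

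Cdk1 had 5 spots in 5 print blocks. Their dye coefficients were 0.59, 0.56, 0.49, -0.47 and -0.76, and their mean ratios 0.052, 0.030, -0.019, 0.020 and -0.010. The dye coefficient of 0.082 given for the gene is thus an average of spots that lay far apart, while the mean ratios lay together. Csnk2a1 had a spot at -0.74 and another at 0.28 in the dye coefficient, with mean ratios of 0.0011 and -0.12. Stk25 had 3 spots at -0.83, -0.021 and 0.24. Jak2 had 3 at 0.34, -0.23 and -0.36, with mean ratios of 0.043, -0.030 and 0.046. The Prkcd spots lay at 0.43, -0.30 and -0.087 in the dye coefficient, and at -0.026, -0.082 and -0.14 in the mean ratio.

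**Figure D4:**
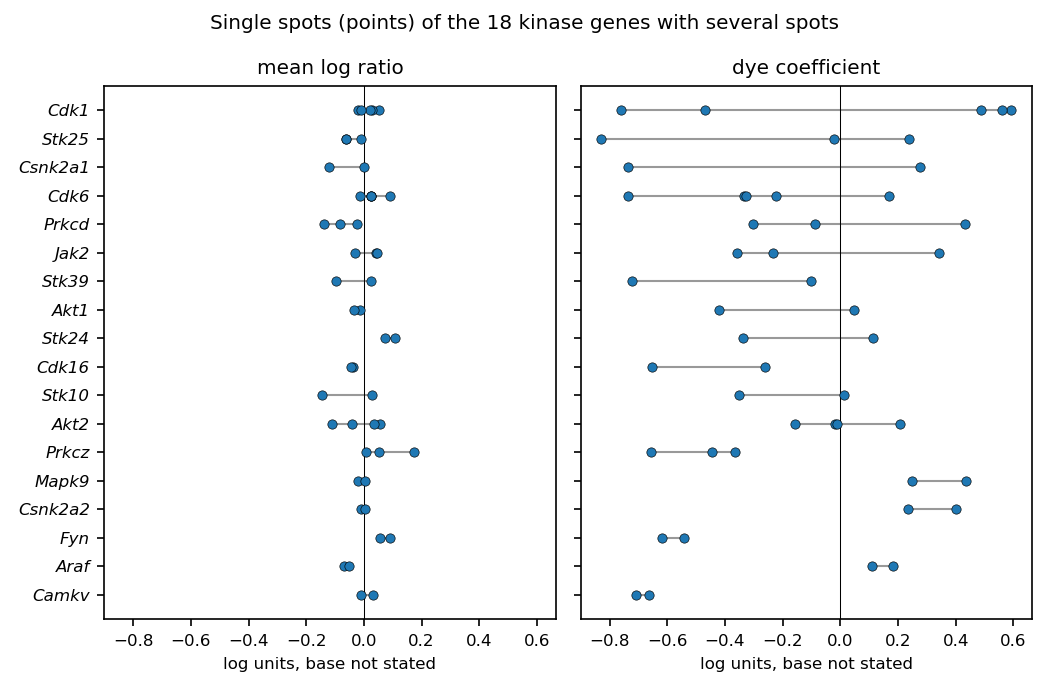
Mean log ratio (left) and dye coefficient (right) of each single spot (points) of the 18 kinase genes with several spots, on the same x axis in log units of unstated base, with a line from the lowest to the highest spot. Points of a gene lie within 0.17 of each other on the left and up to 1.36 apart on the right.

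Of the genes that act around these kinases, 0 passed in limma in the mean ratio in any of 6 lists chosen by gene name. At an unadjusted p under 0.05 in limma, which 16.9% of all features had, the count was 0 of 10 receptor tyrosine kinases, 1 of 5 subunits, 1 of 8 cyclins and CDK inhibitors, and 3 of 21 phosphatases. It was 5 of 8 in the list of small G proteins and adaptors (62.5%, 1 positive and 4 negative) and 3 of 8 STATs and immediate early genes (37.5%, 1 positive and 2 negative). The 5 were Ywhaz, Rasa3, Pik3c3, Irs1 and Pik3r2. Cdc42, the small G protein of that list, stood at -0.015 and was not among them. Among 10 receptor tyrosine kinases, mean ratios lay between -0.082 and 0.083, with a median of -0.029. Tyro3, a receptor of the TAM family, was farthest from 0 at 0.083. Egfr, the epidermal growth factor receptor, stood at -0.047. The 5 measured non-kinase subunits had a median of -0.0060, and Prkag1 was farthest from 0, at 0.14 ± 0.084. Prkar1a, the regulatory subunit that holds protein kinase A inactive, stood at -0.12 ± 0.042.

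The 8 cyclins and CDK inhibitors had a median of 0.011, with Ccnd1, the G1 cyclin partner of Cdk6, farthest from 0 at 0.13. The 21 phosphatase genes had a median of -0.031, with Ptp4a2, a tyrosine phosphatase, farthest from 0 at -0.15. Dusp1, which switches MAP kinases off, stood at -0.049, and Dusp6, which acts on ERK, at 0.0051. The 8 genes listed as small G proteins and adaptors had a median of -0.060, with Pik3r2, a regulatory subunit of PI3 kinase, at -0.19 ± 0.048 (adjusted p = 0.0755 in limma). The 8 STAT and immediate early genes, the nuclear endpoints of these cascades, had a median of -0.033. Myc was farthest from 0 at -0.21 ± 0.052 (adjusted p = 0.0715 in limma), and Stat3, a substrate of JAK kinases, stood at -0.17 ± 0.039 (adjusted p = 0.0544 in limma). On arrays 1 to 4 Stat3 was at 0.38, -0.69, 0.36 and -0.72, and Pik3r2 at -0.66, 0.45, -0.81 and 0.28. Both thus changed side with the dye. Myc was at -0.35, 0.031, -0.27 and -0.24.

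Since whole liver was used, fewer cells of a type and less RNA per cell cannot be told apart. Ratios give no level, so the presence of liver cell types cannot be checked from them. Of 11 hepatocyte markers 6 were measured, and 2 of the 6 passed in limma, Ttr at 0.23 and Tf at 0.19, against 3.92% of all features. After centring, both changed side with the dye. On arrays 1 to 4 Ttr was at 0.63, -0.22, 0.58 and -0.079, and Tf at 0.60, -0.22, 0.54 and -0.17. Their dye coefficients, 0.37 and 0.38, were larger than their mean ratios. The other hepatocyte markers stood at 0.14 (Apob), 0.046 (Serpina1), 0.038 (Cyp2e1) and, on the negative side, -0.095 (Apoa1). Of 8 bile duct markers 2 were measured (Spp1 at -0.010 and Cd24 at -0.065), and of 14 myeloid and lymphoid markers 2 (S100a9 at -0.00040 and Fcgr2b at -0.12). All 5 measured of 13 endothelial, stellate and fibroblast markers lay between -0.095 and -0.024 without passing, and Pf4, the 1 measured of 4 blood markers, stood at 0.0098. Their part in the kinase values was not tested.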

How the data were processed

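The authors deposited 1 log ratio per spot and array for 1936 spots in 16 print blocks, with 0 missing values. Base, direction, scanner, background correction and normalization were not given in the sources used here, and spot brightness is unknown, so the number of arrays, 4, limits the precision. At 18 positions per block no spot was annotated; these 288 spots were taken as controls and left out. Of 1648 gene spots, 1432 had 1 gene symbol in the platform annotation, 19 had several genes and 197 had none. All 61 kinase genes were found in the RefSeq gene table through their Entrez identifiers. Spots of a symbol were averaged and arrays centred on the gene-spot median.

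Differences were tested with limma 3.58.1 (lmFit and eBayes, R 4.3.3) in a model with a mean and a dye effect per gene, 2 residual degrees of freedom, with two-sided p-values adjusted by Benjamini and Hochberg's method across 1174 features; the threshold was 0.05. The fit was tested on simulated data. Named with values were kinase genes past the threshold, the 8 highest and 8 lowest mean ratios, the 5 highest and lowest dye coefficients, the farthest from 0 in each class, and the called or farthest gene of each other list; further genes were added after their values were seen. The kinase genes, the lists, the model and the reading of the arrays were chosen with earlier results of these data known. Figures were drawn with matplotlib 3.10.9.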

Additional observations from a re-analysis of the deposited data

How the results depend on the processing

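The count of kinase genes past the threshold, 1 in the fit used, was 0 without a dye effect (0 also at an unadjusted p under 0.05). It was 2 with every spot tested on its own (Hipk3 and Prkcz). With values as deposited it was 56, all negative, and the median mean ratio of kinase genes was -0.21. Of all 1174 features, 1061 passed as deposited, 1057 of them negative, against 46 in the fit used and 0 without a dye effect. With 1 array left out, the kinase count ranged from 1 to 3, and the median of kinase genes from -0.022 to 0.011. Of all features, 42, 86, 28 and 67 passed without arrays 1, 2, 3 and 4. Without array 2, Mapk8ip2 and Prkaa2 passed beside Hipk3, and without array 3 or array 4, Camk2b did. In the fits without array 2 or array 4 limma gave every gene the same SE, so their calls leave out a gene's own variation. As deposited, all 31 positive kinase genes turned negative, among them Camk2b (-0.021), Camkk1 (-0.059), Mapk8ip2 (-0.075), Stk24 (-0.13), Grk6 (-0.10), Map3k6 (-0.11), Csnk1d (-0.11) and Mapk8 (-0.12). The median of all features there was -0.21, so a positive centred ratio smaller than that is negative as deposited. Equal spread on each array, print blocks centred, robust eBayes, a variance trend and a size limit of 0.2 log units left the count at 1, as did, chosen after seeing the data, genes with 1 spot only and control spots kept in centring. The count in the dye contrast, 53, lay between 51 and 54 with 1 array left out or print blocks centred and was 56 as deposited, where its split changed from 17 positive and 36 negative to 0 and 56. Where 1 array of an orientation was left out, the lone array was assumed to vary like the others. No paired analysis was possible because the 4 arrays form 1 group and each array already holds both treatments.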
